A study of Mus musculus with 6 samples.

Results

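Fatty acid elongases and desaturases are the enzymes that lengthen a fatty acyl chain and that place double bonds in it. The 10 genes described here are the elongases Elovl1, Elovl2, Elovl3, Elovl5, Elovl6 and Elovl7, the stearoyl-CoA desaturases Scd1 and Scd2, and the fatty acid desaturases Fads1 and Fads2. They are members of these enzyme families, and the group was selected on measured values, since the higher signal of Elovl6 in Evi1 Tg was known when it was put together. Of the 10 genes, 9 had a probe set that names 1 gene, among 22180 such genes on the arrays, and Scd2 had none. Every difference below between the groups is therefore a description of these arrays.

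Gene expression was measured on 6 arrays of mouse acute myeloid leukaemia cells, 3 labelled WT and 3 labelled Evi1 Tg. Both groups were untreated leukaemias on the C57BL/6J background that carried MLL-AF9, a fusion oncogene, and the Evi1 Tg leukaemias came in addition from mice with a transgene of Evi1, a zinc finger transcription factor encoded by Mecom. Each array read total RNA of 10000 whole leukaemia cells sorted for green fluorescence. The sources used here do not give the ages of the mice, the form and promoter of the transgene or whether replicate arrays stem from separate mice, so a standard error (SE) measures only the spread between these samples, which may be technical.

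Chains made by fatty acid synthase end mainly at palmitate, and elongases of the endoplasmic reticulum add carbon pairs to them as the first and rate-limiting step of a cycle completed by a reductase, a dehydratase and a further reductase. Elovl1, Elovl3, Elovl6 and Elovl7 act mainly on saturated and monounsaturated chains, and Elovl2 and Elovl5 on polyunsaturated ones. Stearoyl-CoA desaturases turn saturated into monounsaturated chains such as oleate, while Fads2 and Fads1 act on the essential fatty acids on the way to arachidonic acid. Many of these genes are known targets of SREBP-1, a transcription factor that drives lipid synthesis in liver and other tissues.

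Promoter windows, from 250 bases before to 50 bases after the annotated start, were available for 6 of the 10 genes in the RefSeq annotation of GRCm38.p6. They are shown for Elovl6 and Fads2, whose signal was higher in Evi1 Tg, and for Elovl5, whose groups overlapped, so that the letters near their starts can be compared. Capitals mark the motifs searched on both strands, which were the CCAAT box bound by NF-Y (CCAAT), the GC box bound by Sp1 (GGGCGG), the core of the sterol regulatory element bound by SREBP (TCACNCCAC), an E-box (CACGTG) and the GATA-like site known for the N-terminal zinc fingers of EVI1 (GATAAG). No 2 of these motifs overlapped in the windows shown. The windows lie at chr3:129532136-129532435 on the plus strand for Elovl6, chr19:10101454-10101753 on the minus strand for Fads2 and chr9:77917115-77917414 on the plus strand for Elovl5.
Elovl6: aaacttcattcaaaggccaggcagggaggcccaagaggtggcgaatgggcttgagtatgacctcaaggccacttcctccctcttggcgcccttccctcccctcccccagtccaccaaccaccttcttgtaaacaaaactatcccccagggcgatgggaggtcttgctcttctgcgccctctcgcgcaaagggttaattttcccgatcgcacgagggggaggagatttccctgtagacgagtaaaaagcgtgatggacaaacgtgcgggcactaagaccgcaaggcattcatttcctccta
Fads2: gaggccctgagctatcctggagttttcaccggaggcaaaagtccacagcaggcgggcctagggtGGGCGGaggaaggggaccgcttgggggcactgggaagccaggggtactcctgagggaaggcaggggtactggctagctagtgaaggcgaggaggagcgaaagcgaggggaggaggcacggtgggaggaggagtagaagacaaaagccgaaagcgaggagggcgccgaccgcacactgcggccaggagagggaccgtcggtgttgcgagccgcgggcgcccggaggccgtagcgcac
Elovl5: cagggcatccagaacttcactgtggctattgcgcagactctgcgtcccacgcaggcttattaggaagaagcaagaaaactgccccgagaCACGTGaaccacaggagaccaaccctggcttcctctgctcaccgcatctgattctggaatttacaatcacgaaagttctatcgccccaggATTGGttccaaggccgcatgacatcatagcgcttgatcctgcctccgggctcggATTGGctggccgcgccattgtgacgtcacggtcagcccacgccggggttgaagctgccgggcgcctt

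The Elovl6 window held none of the 5 motifs, and the Fads2 window held 1 GC box. The Elovl5 window held 2 CCAAT boxes, read on the opposite strand, and 1 E-box. Elovl1 and Elovl2 each have 2 annotated starts, so the 6 genes had 8 windows. CCAAT was found in 2 of the 8, in a window of Elovl1 and in that of Elovl5, against 37.4% of all 32851 promoter windows of this length. The GC box was found in 5 of the 8, in windows of Elovl1, Elovl2, Elovl7 and Fads2, against 35.7% of all windows. The sterol core was in 0 of the 8 and in 1.24% of all windows. The E-box was in 1 (7.15% of all), and the GATA-like site was in 1, a window of Elovl1 (7.44% of all). The absence of a match says only that these letters are not in these 300 bases. No window was in the table for Elovl3, Scd1, Scd2 and Fads1, which with Fads2 make 5 of the 10 genes that RefSeq places on chromosome 19.

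The arrays were close in scale, with median intensities of 51.6 to 55.4, and Pearson correlations across genes of 0.978 to 0.992 between arrays of one group and 0.972 to 0.985 between arrays of different groups (genes are no independent replicates). A background level of 63.3 was set as the 90th percentile of the mean intensities of 61 genes that are silent in blood cells, such as hormone, lens and muscle genes. Mecom lay below it on all 6 arrays, with WT at 34.1 to 39.4 and Evi1 Tg at 37.5 to 40.7, and these probes therefore do not check the group labels. Group means below are geometric, and a difference is the log2 mean of Evi1 Tg less that of WT, given with the moderated SE of limma over all 22180 genes (n = 3 per group). The 95% intervals are not adjusted for the number of genes. Probe sets of different genes bind with different strength, so intensities are compared between arrays for the same gene, not between genes. The background level, shared by all genes, is therefore a rough mark. Sums over marker lists, given further below, mainly follow their brightest probe sets. In RNA of whole cells, fewer cells of a kind and less RNA per cell cannot be told apart.

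Among the elongases of saturated and monounsaturated chains, Elovl6, which lengthens palmitate to stearate, had the highest ratio between the groups. Its intensity was 47.8, 77.2 and 55.0 in WT 1, 2 and 3, while Evi1 Tg 1, 2 and 3 read 402, 780.1 and 259. All 3 Evi1 Tg arrays lay above all WT arrays, and the lowest of them was 3.35 times the highest WT array. The means were 58.7 and 433, a log2 difference of 2.88 (SE 0.39, 95% interval 1.97 to 3.80) or 7.37-fold. The WT mean was below the background level, so the size of the ratio is limited by background. The Evi1 Tg mean was 6.84 times the background level itself. By this difference Elovl6 ranked 2 among the 22180 genes from the highest down, a rank that belongs to the values that chose the group. The spread among the Evi1 Tg arrays was wide, with an SD of 0.80 on the log2 scale against 0.36 in WT.

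The other elongases of saturated chains had overlapping groups. Elovl1, which makes very long saturated chains used in sphingolipids, read 889, 940.4 and 931 in WT 1, 2 and 3 and 900.4, 879 and 819 in Evi1 Tg 1, 2 and 3. These groups overlapped, and the log2 difference was -0.087 (SE 0.080, 95% interval -0.28 to 0.10). Elovl7, which elongates long saturated chains, read 76.3, 80.1 and 87.2 in WT compared with 92.3, 72.3 and 130.2 in Evi1 Tg. Evi1 Tg 1 and Evi1 Tg 3 lay above all WT arrays and Evi1 Tg 2 below them. The groups thus overlapped, with a difference of 0.24 (SE 0.20, 95% interval -0.24 to 0.71). Elovl3, known from brown fat and skin, read 36.0, 54.3 and 46.7 in WT compared with 37.4, 37.3 and 46.7 in Evi1 Tg, below the background level on every array. Its difference of -0.16 (SE 0.17) is therefore one between background readings. The intervals of Elovl1 and Elovl7 do not show that these genes were equal in the groups.

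**Figure D1:**
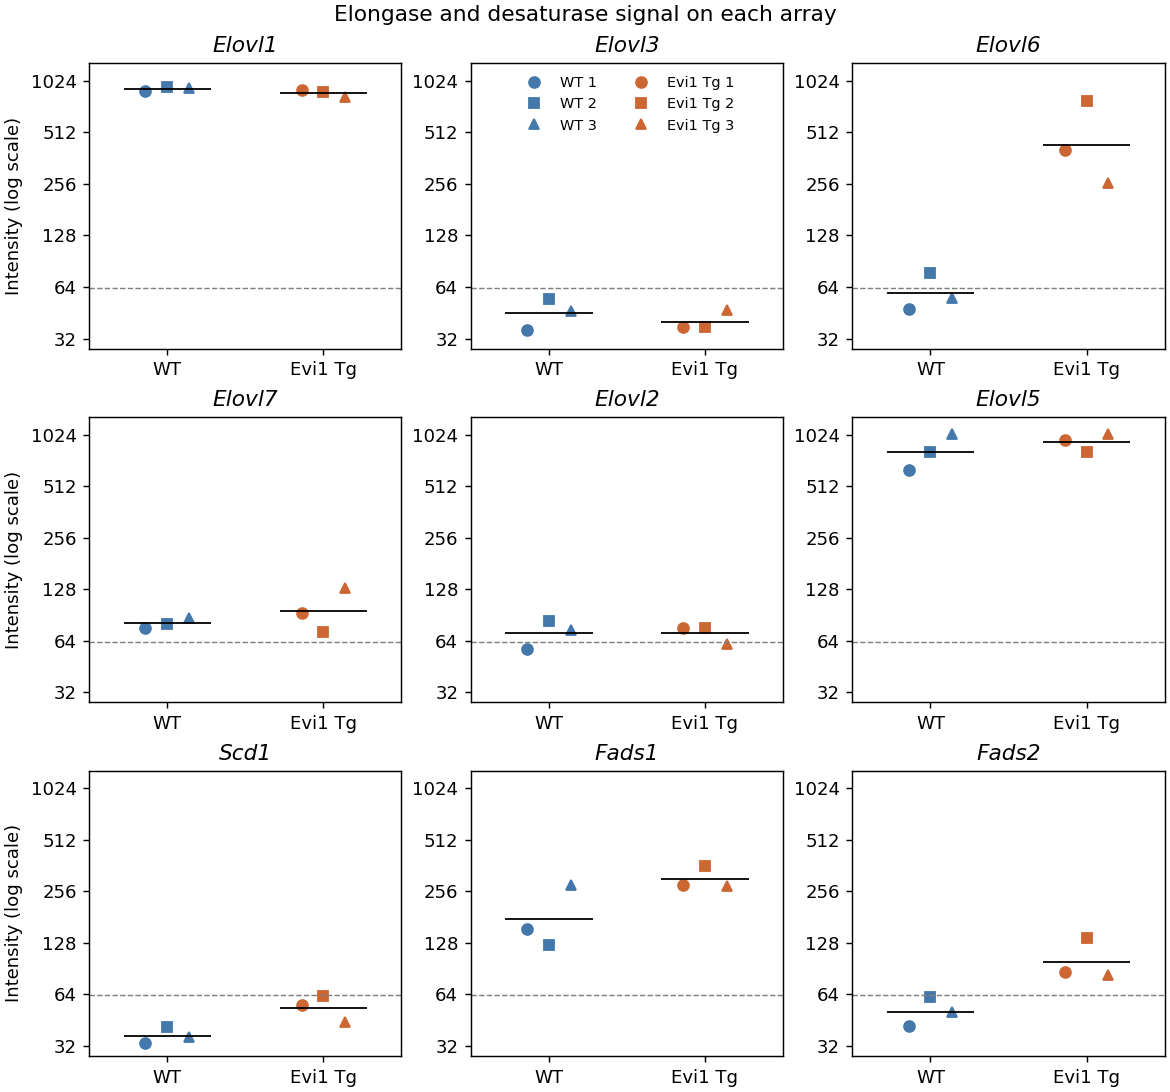
Intensity of the 9 measured genes on each array (log scale), in WT (blue) and Evi1 Tg (orange), with symbols for replicates 1 to 3, black bars for the geometric group means and a dashed line at the background level of 63.3. Elovl6 lies near the line in WT and between 259 and 780.1 in Evi1 Tg, Fads2 and Scd1 show groups that do not overlap at lower signal, and levels of different genes are not to be compared.

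Scd1, the main stearoyl-CoA desaturase of liver and fat, read 33.2, 41.2 and 36.2 in WT 1, 2 and 3 and 55.4, 62.9 and 44.3 in Evi1 Tg 1, 2 and 3. The groups did not overlap, with the lowest Evi1 Tg array at 1.08 times the highest WT array. The means of 36.7 and 53.6 gave a log2 difference of 0.55 (SE 0.15, 95% interval 0.20 to 0.90). Both means, and all 6 arrays, were below the background level, so no fold is given and the signal does not show that the gene was expressed. For Scd2, the form prominent in brain, the only probe set is annotated to Scd2 and to the microRNA gene Mir5114 together, and its signal was assigned to neither. That shared probe set read 2709, 2359 and 3056 in WT compared with 2687, 3616 and 3176 in Evi1 Tg, so that the groups overlapped (difference 0.22, SE 0.14).

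For the enzymes of polyunsaturated chains the desaturases and the elongases gave different values. Fads2, which catalyses the rate-limiting entry step from linoleic and alpha-linolenic acid, read 41.9, 61.7 and 50.7 in WT 1, 2 and 3 and 86.2, 136 and 83.4 in Evi1 Tg 1, 2 and 3. All WT arrays were below the background level and all Evi1 Tg arrays above it, with a gap of 1.35-fold between the nearest arrays. The means were 50.8 and 99.3, a difference of 0.97 (SE 0.22, 95% interval 0.44 to 1.49). The Evi1 Tg mean was 1.57 times the background level, and Evi1 Tg 1 and Evi1 Tg 3 lay below the highest mean of a silent gene (88.5). Fads1, which forms arachidonic and eicosapentaenoic acid, read 154, 125 and 280.5 in WT compared with 279.9, 359 and 275 in Evi1 Tg. WT 1 and WT 2 lay below all Evi1 Tg arrays, whereas WT 3 lay above Evi1 Tg 1 and Evi1 Tg 3, so the groups overlapped. The difference of 0.78 (SE 0.29, 95% interval 0.10 to 1.47), from a mean of 175 to one of 302, thus rested on 2 of the 3 WT arrays.

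Neither polyunsaturated elongase separated the groups. Elovl5, which lengthens the products of Fads2, read 636, 806 and 1027 in WT 1, 2 and 3 and 954, 815 and 1026 in Evi1 Tg 1, 2 and 3. WT 3 matched Evi1 Tg 3, and the difference was 0.20 (SE 0.18, 95% interval -0.23 to 0.63). Elovl2, which serves the later steps towards docosahexaenoic acid, read 57.3, 83.3 and 74.3 in WT compared with 76.1, 75.6 and 61.2 in Evi1 Tg. Its means of 70.8 and 70.6 were just above the background level, with a difference of -0.0034 (SE 0.16, 95% interval -0.38 to 0.37).

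**Figure D2:**
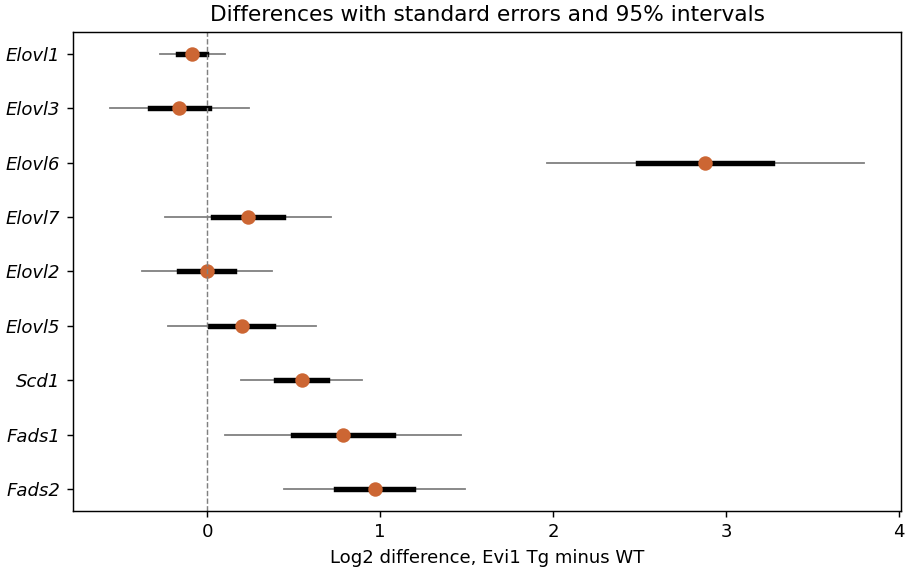
Log2 difference, Evi1 Tg minus WT, for the 9 measured genes (orange points), with the moderated SE (thick bars) and the 95% interval (thin bars). Elovl6 at 2.88 stands to the right of all others, followed by Fads2 (0.97), Fads1 (0.78) and Scd1 (0.55), and the other 5 intervals include 0.

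Read together, 6 of the 9 measured genes had a difference above 0 and 3 below, with a median of 0.24 against 0.012 over all 22180 genes. The groups did not overlap for 3 of the 9, with Evi1 Tg higher (Elovl6, Fads2 and Scd1), where 7.08% of all genes had Evi1 Tg higher without overlap. In the opposite direction the count was 0 of 9, where the share of all genes was 7.47%. At an unadjusted limma p under 0.05, 4 of the 9 were higher in Evi1 Tg (those 3 and Fads1), against 4.50% of all genes, and 0 were lower, against 5.80% of all genes. After Benjamini-Hochberg adjustment over the 22180 genes (threshold 0.05), limma called 0 of the 9, against 0.113% of all genes, and the smallest adjusted p among them was 0.0770 for Elovl6. With 3 arrays in each group, the smallest two-sided p that an exact permutation test allows is 0.10. Since the group was put together with this contrast known, nothing is read from these shares. Of the 9 genes, 7 lay above the background level in at least 1 group (5 of them in both), as did 51.6% of all genes.

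The genes with higher signal in Evi1 Tg also shared an order among the arrays of a group. Elovl6 was highest in Evi1 Tg 2, then Evi1 Tg 1, then Evi1 Tg 3, and Scd1, Fads1 and Fads2 followed the same order, which 21.4% of all genes did. Within WT, Elovl6 was highest in WT 2, then WT 3, then WT 1, and 5 other genes of the group, Elovl1, Elovl2, Elovl3, Scd1 and Fads2, did likewise, against 13.5% of all genes. Scd1 and Fads2 shared both orders with Elovl6, against 2.67% of all genes. Many of the WT readings are below background, and all genes of an array share its RNA and its labelling, so this is a description of 6 arrays.

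The differences depended on single arrays to different degrees. For Elovl6 the log2 difference ranged from 2.46 without Evi1 Tg 2 to 3.25 without Evi1 Tg 3, and it was past the threshold of limma without WT 3 (adjusted p = 0.0365) and without Evi1 Tg 3 (adjusted p = 0.0459). Over all 16 alternatives its adjusted p ranged from 0.0229 to 0.482, and in the 11 that did not pass it the direction was the same. For Fads1, without WT 3 the difference was 1.12 (limma adjusted p = 0.0284), and without WT 2 it was 0.54 (adjusted p = 0.628), where the range over all alternatives was 0.0284 to 0.836. Fads2 ranged from 0.74 to 1.11 and Scd1 from 0.43 to 0.68 with each array left out in turn, and neither passed the threshold in any alternative. The differences of Elovl1, Elovl3, Elovl5 and Elovl7 kept their sign but came as near to 0 as -0.048, -0.026, 0.028 and 0.012 with 1 array left out. Leaving out WT 2 brought the Elovl2 difference to 0.11, so its direction was not settled.

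**Figure D3:**
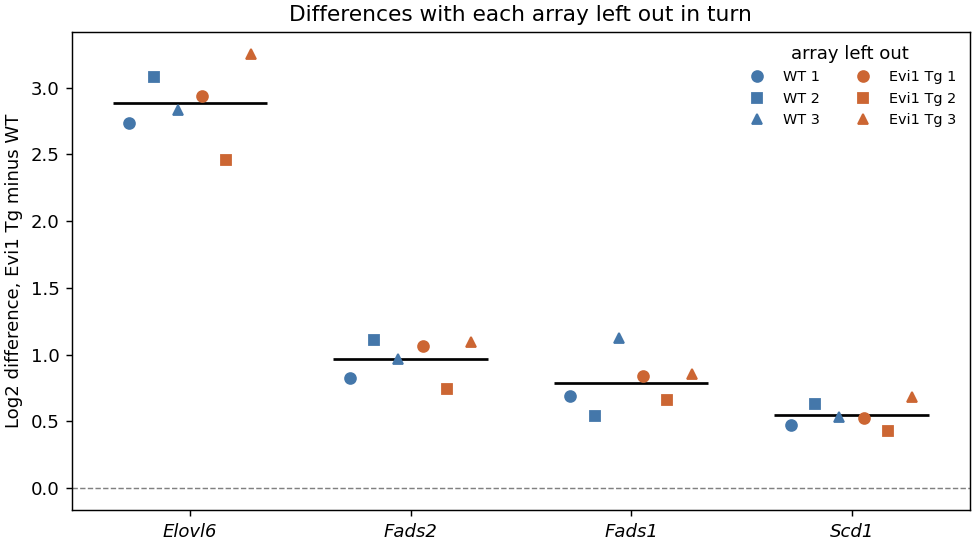
Log2 difference, Evi1 Tg minus WT, of 4 genes over all 6 arrays (black bars) and with each array left out in turn (symbols named for the array left out). Elovl6 stays between 2.46 and 3.25, while Fads1 moves from 0.54 without WT 2 to 1.12 without WT 3.

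The genes closest to Elovl6 in pattern were found by the root mean square distance between log2 values centred on each gene's mean over the 6 arrays, among named genes above background in at least 1 group. They were Erg, an ETS transcription factor, at a distance of 0.50, the adaptor Lat2 at 0.55, the ribonuclease Zc3h12c at 0.64, the surface sialomucin Cd34 at 0.66 and the focal adhesion protein Lpxn at 0.73, in log2 units. Erg read 40.0, 124 and 45.2 in WT 1, 2 and 3 and 337, 523 and 418 in Evi1 Tg 1, 2 and 3. Cd34 read 52.1, 71.5 and 56.3 in WT compared with 573, 812 and 86.7 in Evi1 Tg, so that it followed Elovl6 on 5 arrays and was lower than it on Evi1 Tg 3. Each of the 5 had its Evi1 Tg arrays above its WT arrays, a consequence of the pattern they were matched to. Of the group itself, Fads2 was nearest to Elovl6 at 0.99, with 25 genes closer to Elovl6 than it, followed by Fads1 at 1.21 (117 genes closer) and Scd1 at 1.22 (136 genes closer).

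**Figure D4:**
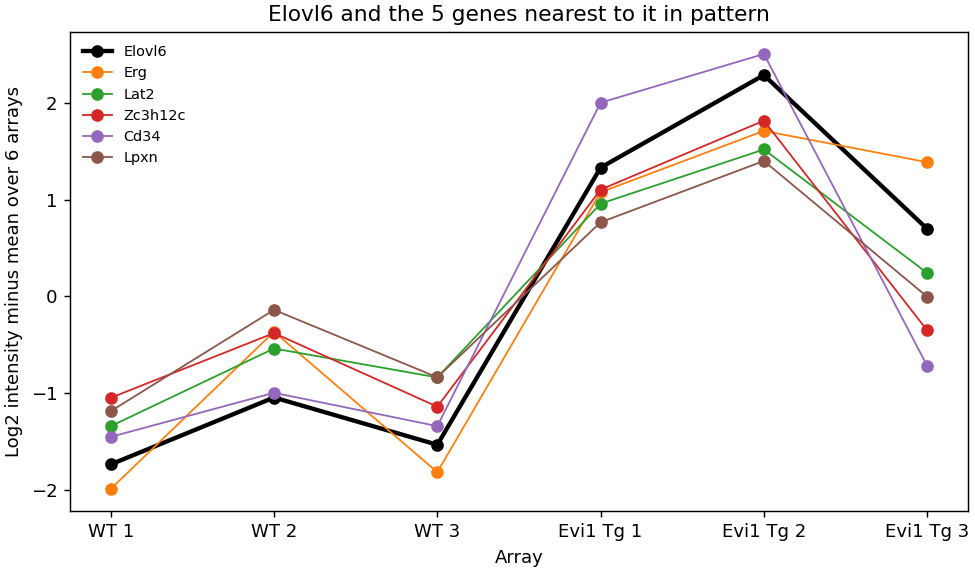
Log2 intensity of Elovl6 (black) and of the 5 genes nearest to it, centred on each gene's mean over the 6 arrays. All 6 lines are higher in Evi1 Tg 1 and Evi1 Tg 2 than in any WT array, and they spread apart at Evi1 Tg 3, where Erg is above and Cd34 below Elovl6.

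The genes around the group, taken from lists of the pathway, had differences in both directions. Of 79 listed genes 71 were measured, 30 with a difference above 0 and 41 below, with a median of -0.023. Limma with adjustment over all genes called 0 of them higher and 0 lower, and at an unadjusted p under 0.05 there were 2 higher and 6 lower, where the shares of all genes were 4.50% and 5.80%. The partners of the elongation cycle, which act on the products of every elongase, had a median of -0.042 over 7 genes. Among them Hsd17b12, the ketoacyl reductase, had a difference of 0.19 (SE 0.22), the dehydratase Hacd3 one of -0.14 (SE 0.19) and the enoyl reductase Tecr one of -0.14 (SE 0.12). Genes that supply electrons to desaturases had a median of -0.10 over 6 genes, with -0.31 (SE 0.14) for cytochrome b5 (Cyb5a) and 0.23 (SE 0.11) for its reductase Cyb5r3.

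Other genes of the elongase and desaturase families had a median of -0.0046 over 7 genes. Of these 7 only Degs1, a ceramide desaturase (mean 470.1 in WT and 569 in Evi1 Tg), and Fads6 (105 and 97.4) were above the background level, and Elovl4, Scd3, Scd4, Fads3 and Degs2 were not. De novo synthesis of fatty acids, which makes the palmitate that Elovl6 uses, had a median of -0.069 over 11 genes. Fasn, the fatty acid synthase, had a difference of 0.13 (SE 0.13), Acaca, the acetyl-CoA carboxylase, 0.14 (SE 0.11) and Acly, the ATP citrate lyase, -0.21 (SE 0.091). In this list 3 of 11 genes had an unadjusted limma p under 0.05, all lower in Evi1 Tg, against 5.80% of all genes. They were the malic enzyme Me1, the acetyl-CoA synthetase Acss2 and the citrate carrier Slc25a1, and 0 passed after adjustment. Without overlap 4 of the 11 lay lower (those 3 and Acly), against 7.47% of all genes, and 0 higher, against 7.08%. Me1, which supplies NADPH, read 654, 555 and 458 in WT 1, 2 and 3 and 248, 179 and 356 in Evi1 Tg 1, 2 and 3. Its groups did not overlap, and its difference of -1.13 (SE 0.25) was larger in size than those of Fads2, Fads1 and Scd1 and opposite in sign.

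For the listed genes that control lipid synthesis the differences lay between -0.18 and 0.12. Srebf1, which encodes SREBP-1, read 206, 189 and 197 in WT 1, 2 and 3 and 200.2, 218 and 183 in Evi1 Tg 1, 2 and 3. Its groups overlapped, with a difference of 0.016 (SE 0.094), and Srebf2, which encodes SREBP-2, had 0.027 (SE 0.12). Insig1, a retention factor of the SREBP system, had 0.12 (SE 0.28, 95% interval -0.53 to 0.77) and Nr1h3, the receptor LXR-alpha, -0.083 (SE 0.11). These values do not show that the genes were equal in the groups. The list of 14 measured regulators, 12 of them above background, had a median of -0.0090. Sterol synthesis and uptake had one of -0.015 over 10 measured genes. Targets of LXR had a median of -0.15 over 7 genes, among which are Scd1 with 0.55 and the sterol exporter Abca1 with -0.92 (SE 0.24). Genes of acyl chain activation and remodelling had a median of -0.0083 over 13 genes, with -0.39 (SE 0.14) for Acsl4, which activates arachidonic acid, and -0.17 (SE 0.081) for the acyltransferase Lpcat3. In the same list Gpam, the mitochondrial glycerol-3-phosphate acyltransferase, had 0.53 (SE 0.18) and the acyltransferase Lpcat2 -0.71 (SE 0.29), both with overlapping groups.

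**Figure D5:**
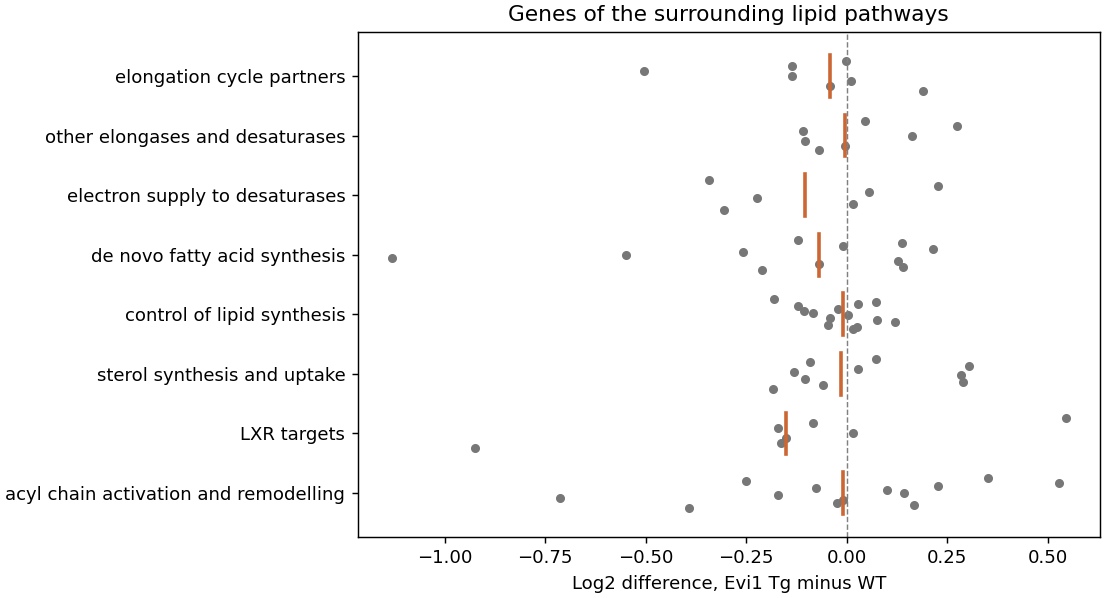
Log2 difference, Evi1 Tg minus WT, of each measured gene in 8 lists of lipid metabolism (grey points), with the list median (orange bar). The medians lie between -0.15 and -0.0046, and the list of LXR targets includes Scd1, the point at 0.55.

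Markers of cell types were read beside these values. All 12 of 12 listed myeloid leukaemia markers were above the background level, with summed intensities of 18273 to 25826.5 in WT and 22148 to 25299 in Evi1 Tg, and their differences lay above 0 for 6 and below 0 for 6. In 4 of the 12 the Evi1 Tg arrays lay above all WT arrays and in 2 below them, against 7.08% and 7.47% of all genes. Mpo, the myeloperoxidase of granulocyte progenitors, read 92.7, 68.1 and 252 in WT 1, 2 and 3 and 1192, 863 and 525 in Evi1 Tg 1, 2 and 3. Kit, the receptor for stem cell factor, read 90.6, 113 and 112 in WT compared with 211, 219 and 316 in Evi1 Tg. Besides Mpo and Kit, the neutrophil elastase Elane (difference 0.44, SE 0.13) and the homeobox factor Meis1 (0.85, SE 0.27) lay higher. The 2 that lay lower were Csf3r, the receptor for granulocyte colony-stimulating factor, with a difference of -0.55 (SE 0.18), and Ptprc, the pan-leukocyte antigen CD45, with -0.39 (SE 0.14). The part of such shifts in the values of Elovl6, Fads2 and Scd1 was not tested. None of the 6 measured adipocyte markers was above the background level, and their sums were 247 to 261 in WT and 240.3 to 256 in Evi1 Tg.

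Markers of other blood cells were uneven among the WT arrays. The 6 markers of mast cells and eosinophils, 4 of them above background, summed to 374, 1097 and 643 in WT 1, 2 and 3 and to 306 to 334 in Evi1 Tg. The mast cell protease Cpa3 was at 25.1, 621 and 239 in WT and at 26.1 to 29.9 in Evi1 Tg. Of the 6 markers, 5 had a difference below 0 and 1 above. Siglecf (-0.93, SE 0.24) and Prg2 (-0.66, SE 0.20) lay lower in Evi1 Tg without overlap, where 7.47% of all genes did. The T cell list (1 of 6 above background) summed to 339.9 to 657 in WT and 329.7 to 365 in Evi1 Tg, and the megakaryocyte list (4 of 4) to 254 to 603 and 257 to 339. The macrophage list (5 of 6) gave sums of 3333 to 4754 in WT and 4515 to 4677 in Evi1 Tg, but 2 of its markers went opposite ways without overlap between the groups. Adgre1, the F4/80 antigen, was lower in Evi1 Tg (means 1106 in WT and 505 in Evi1 Tg, difference -1.13, SE 0.21), and Cd68, a lysosomal protein, was higher (means 2144 and 3349, difference 0.64, SE 0.19). Sums for B cells (1 of 5), erythroid cells (0 of 5) and marrow stroma and endothelium (2 of 6) lay between 227 and 338 on all arrays. In WT 2 the T cell sum came mostly from Thy1 (443), while Cd3d, Cd3e, Cd3g, Cd4 and Cd8a were below background. WT 2 had the highest mast cell, T cell, B cell, megakaryocyte and myeloid leukaemia sums among the WT arrays. It was also the WT array with the highest Elovl6, Fads2 and Scd1, and with the highest Elovl1, Elovl2 and Elovl3. Fads1 was instead lowest in WT 2 (125). Without WT 2 the differences of Elovl6, Fads2 and Scd1 were 3.08, 1.11 and 0.63, a rise that leaving out the highest WT array always brings. That of Fads1 fell to 0.54. The part of other cells in these values was not tested.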

How the data were processed

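The table deposited by the authors holds an intensity for each probe set on each of the 6 arrays. Per the labels' protocols, biotinylated cDNA was made from sorted cells with the GeneChip WT PLUS kit. The sources used here do not give the background correction, normalization and summarisation. All values were positive, and the linear scale was judged from them.

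Of 34351 probe sets, 23521 carried 1 gene symbol in the platform annotation, 1814 several and 9016 none. Each gene was read from the single-symbol probe set with the highest mean over the 6 arrays (22180 genes), and each of the 9 measured members had 1 such probe set. Log2 values, without a pseudocount, entered 1 fit over all genes (lmFit and eBayes, limma 3.58.1, R 4.3.3), and p-values were adjusted by Benjamini-Hochberg at a threshold of 0.05. The procedure was also run on simulated data with independent noise for each gene. These data held no effects shared across an array, and nothing is read from them here. Figures were drawn with matplotlib 3.10.9.

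Members, lists and tests were chosen with earlier results of these data known. The text names all members, Mecom, a set list of pathway genes (Fasn, Acaca, Acly, Srebf1, Srebf2, Insig1, Nr1h3, Hsd17b12, Tecr, Hacd3, Cyb5a, Cyb5r3, Acsl4 and Lpcat3, with others not reported here) and the 5 genes nearest to Elovl6, leaving out predicted genes, small RNAs and receptor or immunoglobulin segments. Me1, Acss2, Slc25a1, Abca1, Gpam, Lpcat2, Degs1, Fads6 and the markers named were chosen after their values were seen. The alternatives were other normalizations, filters, variance models, probe set choices, a replicate block, an averaged pair of Evi1 Tg arrays and each array left out in turn.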

Additional observations from a re-analysis of the deposited data

How the results depend on the processing

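The 16 alternatives kept the direction of each measured gene except Elovl2, whose difference was 0.0020 with quantile normalization and 0.11 with array weights, and ranged from -0.16 to 0.11 with each array left out. Of the 9 genes, 1 (Elovl6) was called with trend and robust settings and with array weights. With each array left out in turn 0 to 2 were called (Elovl6 and Fads1 without WT 3). With dim genes left out, 7 of the 9 were among the 11455 genes fitted, and Elovl6 was called. Elovl6 passed that filter only through its Evi1 Tg mean, so nothing is read from this call. The count over all 22180 genes was 25. It was 38 with trend and robust settings, 114 with array weights and 9 with the replicate block. With dim genes left out it was 42 of 11455. It was 6 with Evi1 Tg 1 and 2 averaged, and 2 to 556 with each array left out (the latter without WT 3). Without moderation it was 0 (825 higher and 945 lower genes at an unadjusted p under 0.05). Deviations of same-numbered arrays correlated at 0.189, -0.185 and 0.0614, and 2 of 6 arrays were nearest to their own number. With 3 arrays per group these values cannot show whether same-numbered arrays share more than a number. With the replicate block Elovl6 had an adjusted p of 0.0694. At the highest intensity of a silent gene as background level 6 members lay above it in at least 1 group, against 7. Signal near background limits Elovl3 and Scd1 in both groups and Elovl6 and Fads2 in WT. The means of Elovl2 in WT (70.8) and Evi1 Tg (70.6) and of Elovl7 in WT (81.1) were also below the highest silent gene (88.5). Elovl3 and Scd1 had no value with dim genes left out.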
